A study of Mus musculus with 6 samples.

Results

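The genes of glycolysis, the pentose phosphate pathway and the first steps of glycogen synthesis were compared between bone marrow-derived macrophages with and without a knockout of Dhps. The list holds 35 genes, chosen by symbol: 23 for glucose uptake, glycolysis, lactate handling and the entry of pyruvate into mitochondria, 8 for the pentose phosphate pathway and 4 for glycogen and UDP-glucose. Of the 35, 34 had a row in the deposited count table of 10551 genes. Eno1, the main enolase gene of most tissues, was not analysed here.

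Glycolysis splits glucose into pyruvate in the cytosol and yields ATP and NADH, and lactate dehydrogenase turns pyruvate into lactate while restoring NAD+. The pentose phosphate pathway leaves glycolysis at glucose 6-phosphate. Its oxidative branch makes NADPH, and its non-oxidative branch exchanges sugars between ribose 5-phosphate and glycolytic intermediates. Macrophages activated by microbial products are known for high glycolytic flux and for drawing on NADPH to make reactive oxygen species and nitric oxide. Flux was not measured here, only transcript levels.

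Per the labels, 3 libraries came from C57BL/6J macrophages of a macrophage-specific knockout, labelled Dhps_delta_Myel, and 3 from C57BL/6J macrophages of control genotype. Dhps encodes deoxyhypusine synthase, the first enzyme in making hypusine, a modified lysine of the translation factor eIF5A. A Cre driver, a stimulus, a growth factor and an age are not in the labels. Nor is it given if replicates were different animals or different cultures, so that p-values measure only the spread between these libraries, which may be technical. The title of the series links the enzyme to a pro-inflammatory phenotype.

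Total counts lay between 12960793 and 16224818 in the knockout libraries and between 11648710 and 15382816 in the control libraries. Values within a gene are given as CPM, counts per 1000000 counts of the library after TMM scaling (trimmed mean of M values). Levels of different genes are compared only as CPM per kilobase of the deposited exon length. Dhps itself lay at 13.2, 13.6 and 18.3 CPM in the knockout libraries, against 24.1, 20.9 and 23.4 CPM in the control libraries (adjusted p = 0.214 in edgeR's quasi-likelihood test, for a log2 fold change of -0.59 with an SE of 0.14). Its groups did not overlap, but counts over all its exons are a limited check of the labels, since the deleted exons are not named there. Csf1r, Adgre1 and Cd68, which define macrophages, had means of 1003, 1338 and 473 CPM in knockout and 1093, 1512 and 476 CPM in control libraries. Of the 11 macrophage markers, 8 had a log2 fold change below 0. For 6 of them, Adgre1 included, every knockout library lay below every control library, against 5.45% of all genes. Of these, 5 had an unadjusted p under 0.05, and C1qc (-0.33), C1qa (-0.28), Fcgr1 (-0.33) and C1qb (-0.25) did not pass the adjusted threshold. Lyz2, the fifth of them and the 1 gene of the table that fell past the threshold, averaged 8765 CPM in knockout and 18039 CPM in control libraries. Markers of other cells moved with genotype too: 12 of 13 measured neutrophil markers had a log2 fold change above 0, 5 of them past the threshold, and their summed level was 718 to 899 CPM in knockout and 409 to 517 CPM in control libraries, with Ctsg, Ly6g and Retnlg not analysed here. The 6 measured stromal markers, of which 3 rose past the threshold, summed to 20.7 to 28.8 CPM in knockout and 10.9 to 14.3 CPM in control libraries. For 6 of the 8 platelet markers every knockout library lay above every control library, against 5.73% of all genes. The median log2 fold change was 0.64 over the 8, with 0 past the threshold. Of the 6, Tubb1 and Gp9 were under 1 CPM in every control library, so the limit given for Col1a2 and Sparc holds for them. The sum of the 8, which is mostly Pf4 (-0.29 on the log2 scale), ran the other way, at 1275 to 1401 CPM in knockout and 1501 to 1801 CPM in control libraries. Of the 10 monocyte markers 7 had a log2 fold change above 0, 5 of them at an unadjusted p under 0.05 and 0 past the threshold, with a median of 0.41. Their sum, which is mostly Fn1 (-0.14 on the log2 scale), was 661 to 833 CPM in knockout and 712 to 876 CPM in control libraries. The 4 mast cell and basophil markers summed to 5.36 to 7.79 CPM in knockout and 2.00 to 4.44 CPM in control libraries. Mcpt8 (2.00 on the log2 scale) and Prss34 (1.70) did not overlap between the groups, while Kit (0.11) and Cpa3 (-0.11) did. Mcpt8 and Prss34 were under 1 CPM in every control library, so they too were kept only through the knockout libraries. Their lack of overlap was fixed by that, and the sum holds them as well. The 3 dendritic cell markers summed to 316 to 324 CPM in knockout and 211 to 304 CPM in control libraries. That sum is mostly Itgax (0.29 on the log2 scale), while Zbtb46 (0.57) and Clec9a (0.21) overlapped between the groups. Of 9 lymphoid markers only Cd79b was analysed here, and of 7 erythroid markers none. What part these cells have in the values below was not tested.

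No gene of these pathways differed between the groups past the threshold. With edgeR's quasi-likelihood test and Benjamini-Hochberg adjustment over all 10551 genes, 0 of 34 members rose and 0 fell at an adjusted p under 0.05, where 0.0948% of all genes rose and 0.00948% fell. DESeq2 and limma-voom also called 0 members. At an unadjusted p under 0.05, 1 member was higher in knockout libraries (Gapdh), against 3.84% of all genes, and 1 lower (Ldhb), against 2.64%, which makes 6.48% in either direction. Log2 fold changes of knockout over control lay between -0.36 and 0.23, with 22 members below 0 and 12 above, while 51.3% of all genes were below 0. Their median was -0.061, against -0.0044 over all genes. The 95% interval of the log2 fold change lay within a 2-fold change either way for all 34 members, and within 1.5-fold for 30 of them, against 9626 and 7588 of all 10551 genes. The 4 with wider intervals, Pfkm, Aldoc, Eno2 and Ldhb, were all under 10 CPM in every library. In bulk RNA, fewer cells of a type and less RNA per cell cannot be told apart.

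**Figure D1:**
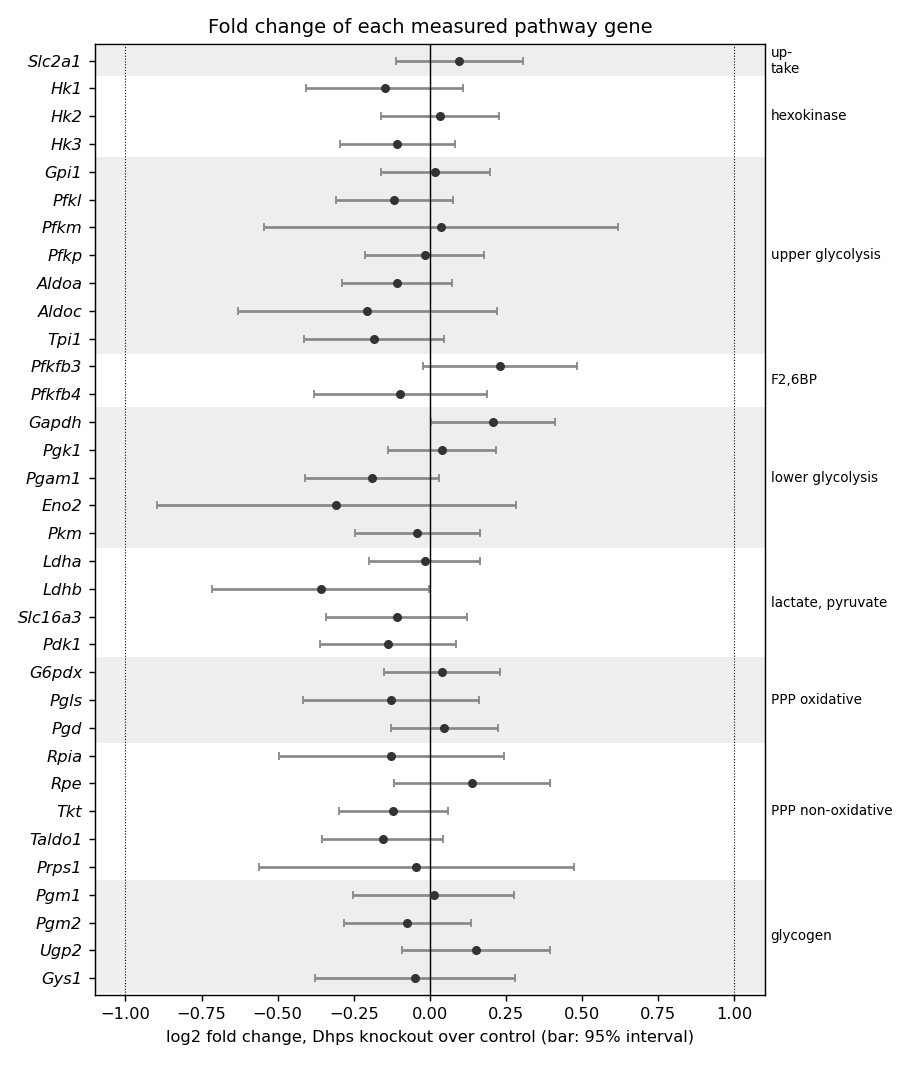
Log2 fold change of knockout over control (x axis) for each of the 34 measured genes (y axis, by role), with bars for the 95% interval from edgeR and dotted lines at a 2-fold change. Points lie between -0.36 and 0.23, and the intervals of Gapdh and Ldhb alone do not cross 0.

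Across members, 1 control library stood apart. Control library 1 had the highest value of all 6 libraries for 18 of the 34 genes, or 52.9%, where it was highest for 20.7% of all genes. Within the control group it was the highest for 16 of 22 glycolysis members and 5 of 8 pentose phosphate members. Knockout library 1 was the highest of its own group for 12 of 22 glycolysis members and 4 of 8 pentose phosphate members. Over all genes, control library 1 was the highest of its group for 36.9% and knockout library 1 for 37.0%. The median log2 fold change of the glycolysis members was -0.10 with all libraries, -0.0034 without control library 1 and between -0.12 and -0.0034 with any 1 library left out. For the pentose phosphate members it was -0.082 with all libraries, 0.022 without control library 1 and -0.17 without control library 3. Within groups the members had a median SD of 7.24% of the mean in knockout and 9.19% in control libraries, against 10.2% and 10.5% over all genes.

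**Figure D2:**
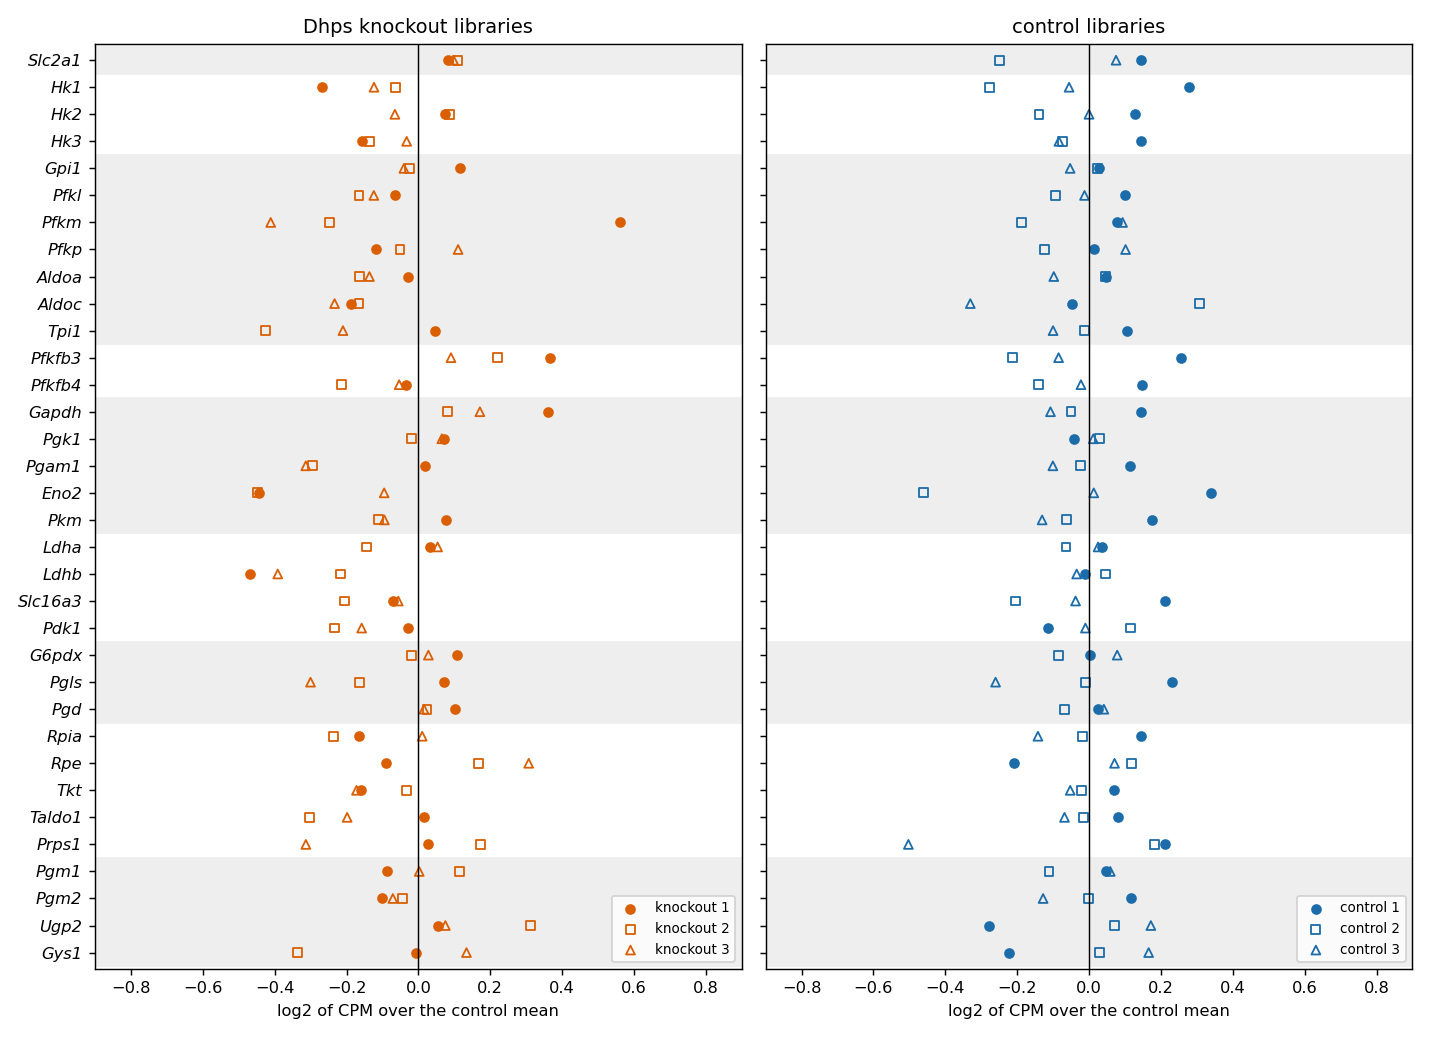
Log2 of the CPM in each library over the control mean (x axis) for each of the 34 genes (y axis), with knockout libraries on the left, control libraries on the right and library 1 of each group filled. In the control panel the filled marks lie to the right for most glycolysis genes. Control library 1 was the highest control for 16 of 22 of them, against 36.9% of all genes.

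These pathways were abundantly transcribed in both groups. Of the 34 genes, 14 ranked among the 1000 highest of the table per length and 10 exceeded 100 CPM per kilobase. The summed level of the 22 glycolysis members was 2479, 2239 and 2340 CPM per kilobase in the knockout libraries, against 2569, 2315 and 2300 CPM per kilobase in the control libraries. For the 8 pentose phosphate members the sums were 639, 566 and 579 CPM per kilobase in knockout and 661, 621 and 615 CPM per kilobase in control libraries. Both sums overlapped between the groups. The highest member was Aldoa, with 403 ± 20.3 CPM per kilobase in knockout and 434 ± 24.7 in control libraries (SD, n = 3 each), or 17.1% and 18.2% of the glycolysis sum. Pkm came next, at 358 ± 26.2 in knockout and 368 ± 42.1 in control libraries, and Taldo1 and Ldha, the next in level, did not keep 1 order in both groups. At the other end, Eno2 and Pfkm averaged 0.938 and 1.20 CPM per kilobase in knockout and 1.17 and 1.18 in control libraries.

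**Figure D3:**
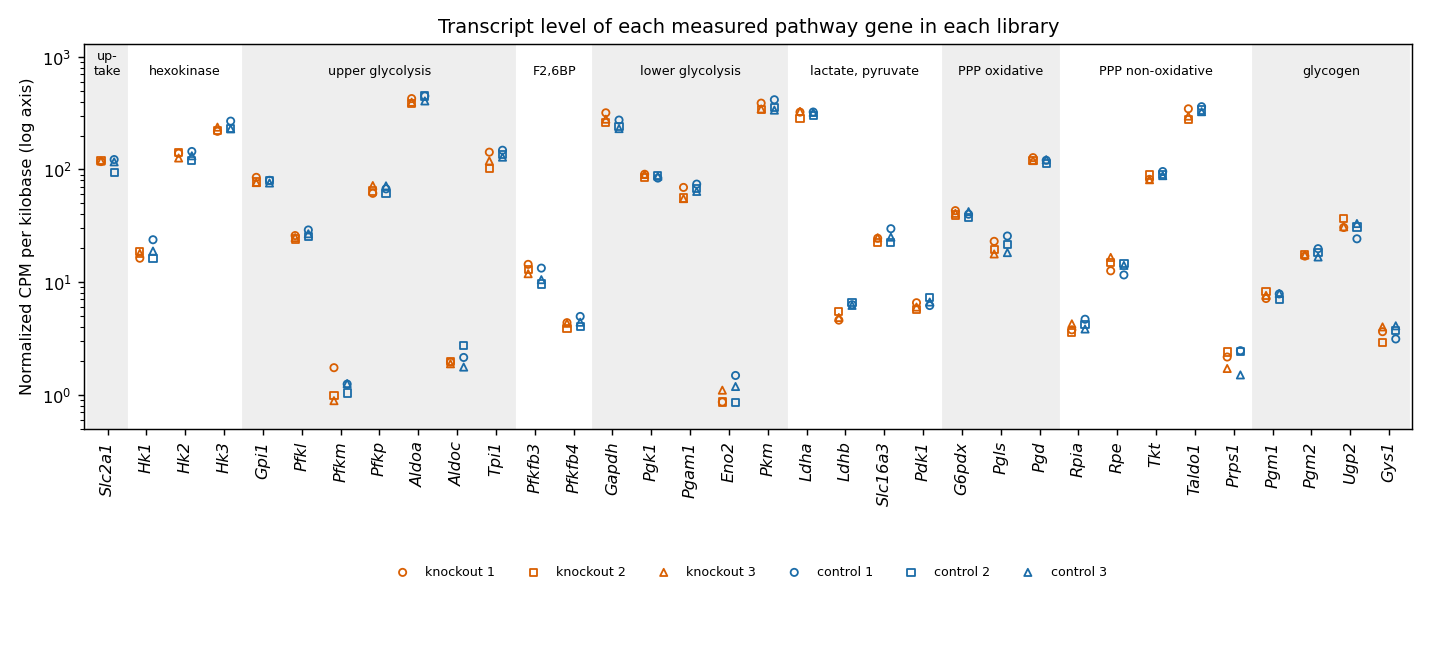
Normalized CPM per kilobase of exon length (y axis, log scale) of each of the 34 genes (x axis, grouped by role) in each of 3 knockout and 3 control libraries. Levels run from about 1 for Eno2 and Pfkm to 434 for Aldoa in control libraries.

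The regulatory sequences of 4 members are shown because Gapdh and Ldhb had the smallest p-values, Pfkfb3 the next, and Ldha is the abundant partner of Ldhb. Each line holds 300 bases in the direction of transcription, from 250 before to 50 after a RefSeq start site (build GRCm38.p6), the one nearest to the 5′ end of the gene in the deposited table, which for Gapdh was 694 bases away and for the others at that end. Capitals mark matches to the hypoxia-response core words ACGTG and GCGTG on either strand (CACGT and CACGC when read on the opposite one).
Gapdh, chr6:125165724-125166023, minus strand: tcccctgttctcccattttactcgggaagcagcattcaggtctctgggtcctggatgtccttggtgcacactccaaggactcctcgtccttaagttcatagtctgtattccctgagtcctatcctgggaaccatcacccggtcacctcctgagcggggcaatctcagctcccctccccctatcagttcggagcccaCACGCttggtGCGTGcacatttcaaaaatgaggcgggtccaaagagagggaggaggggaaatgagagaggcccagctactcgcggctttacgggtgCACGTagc
Pfkfb3, chr2:11553880-11554179, minus strand: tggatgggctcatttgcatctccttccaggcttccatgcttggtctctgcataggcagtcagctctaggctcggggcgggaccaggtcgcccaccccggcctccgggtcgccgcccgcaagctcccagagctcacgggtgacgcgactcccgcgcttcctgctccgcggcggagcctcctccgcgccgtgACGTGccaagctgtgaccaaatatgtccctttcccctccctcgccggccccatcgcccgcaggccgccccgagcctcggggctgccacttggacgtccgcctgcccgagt
Ldha, chr7:46845554-46845853, plus strand: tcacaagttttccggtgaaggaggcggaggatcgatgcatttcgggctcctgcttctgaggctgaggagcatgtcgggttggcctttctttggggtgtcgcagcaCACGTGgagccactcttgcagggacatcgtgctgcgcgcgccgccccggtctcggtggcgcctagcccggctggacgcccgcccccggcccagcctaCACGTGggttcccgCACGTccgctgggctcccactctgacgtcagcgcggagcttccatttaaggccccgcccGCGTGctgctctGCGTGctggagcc
Ldhb, chr6:142507908-142508207, minus strand: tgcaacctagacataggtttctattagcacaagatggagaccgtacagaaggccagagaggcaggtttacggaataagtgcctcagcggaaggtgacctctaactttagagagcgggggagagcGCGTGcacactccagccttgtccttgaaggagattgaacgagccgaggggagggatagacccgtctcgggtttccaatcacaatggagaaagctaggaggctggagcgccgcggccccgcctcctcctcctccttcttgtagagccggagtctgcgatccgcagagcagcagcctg

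Matches on the 2 strands that overlap, as in CACGTG, were counted separately. The Ldha window held 5 matches to ACGTG and 2 to GCGTG, the Ldhb window 0 and 1, the Gapdh window 1 and 2, and the Pfkfb3 window 1 and 0. ACGTG occurred in the windows of 11 of 22 glycolysis members, 1 of 8 pentose phosphate members (G6pdx) and 3 of 4 glycogen members, against 26.6% of the 8518 genes of the table with such a window. GCGTG occurred in 10, 7 and 1 of them, against 52.9%. A match is a word in the sequence and not a site at which binding was measured.

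Glucose enters macrophages through GLUT1, the product of Slc2a1. Slc2a1 had 302, 307 and 305 CPM in the knockout libraries, against 315, 240.0 and 300.3 CPM in the control libraries. The knockout values lay inside the control range, in which control library 2 was low, and the log2 fold change was 0.10 (SE 0.099, adjusted p = 0.932). Hexokinase, which traps glucose as glucose 6-phosphate, is encoded by 3 of the members. Hk3, a form found mainly in myeloid cells, was the highest per length, with 59.6 ± 2.28% of the hexokinase level in knockout and 61.6 ± 1.31% in control libraries (SD, n = 3 each). Hk2, the inducible form, held 35.8 ± 2.32% and 33.5 ± 1.11%. Hk1, the form of most tissues, held only 4.67 ± 0.29% in knockout and 4.93 ± 0.52% in control libraries. All 3 shares overlapped between the groups.

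Hk3 lay at 713, 723 and 776 CPM in knockout libraries, against 878, 755 and 749 CPM in control libraries. Control library 1 stood above the other 5, and the log2 fold change was -0.11 (95% interval -0.30 to 0.082). Hk2 lay at 767, 774 and 696 CPM in knockout libraries, against 796, 661 and 728 CPM in control libraries (log2 fold change 0.03, 95% interval -0.16 to 0.23). Hk1 lay at 73.4, 84.5 and 81.0 CPM in knockout libraries, against 107, 72.8 and 85.0 CPM in control libraries (-0.15, 95% interval -0.41 to 0.11). Its highest value was again control library 1, and without that library the log2 fold change was 0.015.

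In upper glycolysis, phosphofructokinase commits fructose 6-phosphate to breakdown. The platelet-type subunit Pfkp carried 71.5 ± 2.37% of the step's level in knockout and 70.2 ± 1.44% in control libraries, and the liver-type Pfkl 27.2 ± 1.83% and 28.6 ± 1.45% (SD, n = 3 each). The muscle-type Pfkm held 1.32 ± 0.55% and 1.24 ± 0.051%. In CPM, Pfkp had 257, 269 and 301 in knockout against 281, 256 and 299 in control libraries, and Pfkl 96.1, 89.7 and 92.3 against 108, 94.3 and 99.7. The ranges overlapped for both. Knockout library 1 was high for Pfkm, at 5.30 CPM against 2.70 to 3.83 CPM in the other libraries, so that its log2 fold change of 0.04 was -0.32 without that library.

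Aldolase, which splits fructose 1,6-bisphosphate, came almost wholly from Aldoa. Its share of the step was 99.5 ± 0.026% in knockout and 99.5 ± 0.091% in control libraries, and the rest was Aldoc, the form best known from brain. Aldoa lay at 777, 707 and 720 CPM in knockout libraries, against 818, 818 and 740 CPM in control libraries (-0.11 ± 0.085 on the log2 scale, SE, adjusted p = 0.903). Aldoc had 5.40 to 5.66 CPM in knockout and 5.04 to 7.84 CPM in control libraries. Gpi1, the isomerase between glucose and fructose 6-phosphate, had overlapping groups, at 246, 223 and 221 CPM in knockout against 231, 231 and 219 CPM in control libraries. Tpi1, which interconverts the triose phosphates, had 228, 164 and 191 CPM in knockout against 237, 219 and 206 CPM in control libraries. Its log2 fold change of -0.18 (SE 0.11, adjusted p = 0.861) was -0.31 without knockout library 1, the highest of its group, where it still did not pass (adjusted p = 0.573).

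Fructose 2,6-bisphosphate, the strongest activator of phosphofructokinase, is made and removed by the bifunctional enzymes of the Pfkfb genes. Pfkfb3, whose product favours synthesis and hence glycolysis, had 75.9, 68.6 and 62.7 CPM in knockout libraries, against 70.3, 50.8 and 55.5 CPM in control libraries. Control library 1 overlapped the knockout range while the other controls lay below it, and the log2 fold change was 0.23 (SE 0.12, 95% interval -0.022 to 0.48, adjusted p = 0.834). Without control library 1 it was 0.38 (adjusted p = 0.246). Pfkfb4 lay at 14.6, 12.9 and 14.5 CPM in knockout and 16.6, 13.6 and 14.8 CPM in control libraries (log2 fold change -0.10, adjusted p = 0.961). Within the pair, Pfkfb3 held 76.7%, 77.1% and 73.4% of the level per length in knockout libraries, against 72.9%, 70.3% and 70.5% in control libraries. Those shares did not overlap, with knockout library 3 and control library 1 close together, and no test was made of them.

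**Figure D4:**
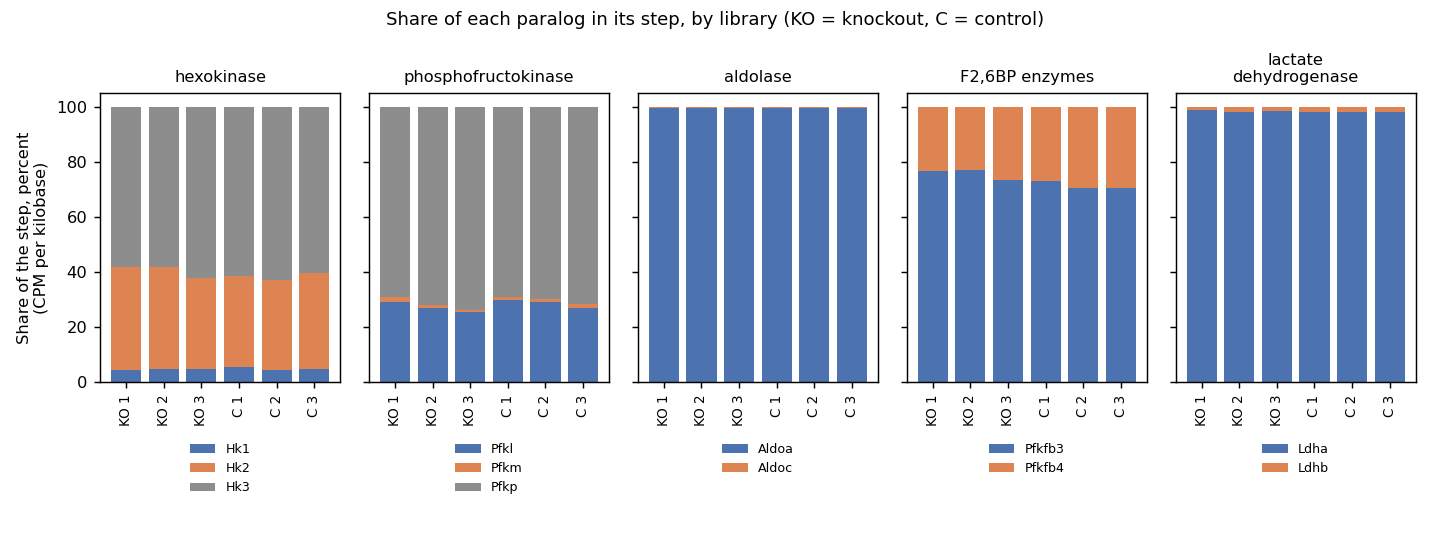
Share (y axis, percent of summed CPM per kilobase) of each paralog in the 5 steps with more than 1 measured gene, one stacked bar per library, knockout libraries left of control libraries. Hk3, Pfkp, Aldoa, Pfkfb3 and Ldha are the largest parts in all 6 libraries.

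Lower glycolysis runs from glyceraldehyde 3-phosphate to pyruvate. Gapdh, which encodes the dehydrogenase that makes its NADH and is often used as a reference gene, was the only member higher at an unadjusted p under 0.05. It had 476, 393 and 418 CPM in the knockout libraries, against 411, 359 and 345 CPM in the control libraries. Knockout library 2 lay below control library 1, so the groups overlapped. The log2 fold change was 0.21 (SE 0.097, 95% interval 0.0037 to 0.41, unadjusted p = 0.046, adjusted p = 0.749). It stayed above 0 with each library left out, from 0.13 without knockout library 1 to 0.29 without control library 1. Stretches covering 88.0% of the longest annotated Gapdh transcript also occur, at an identity of at least 95% over at least 100 bases, in 76 other annotated genes, 73 of them pseudogenes. Reads from such stretches can be left out or assigned elsewhere, so the level of Gapdh is uncertain. The same holds in part for Ldhb, with 1 such copy over 76.8% of its transcript, and for Pgk1, Pkm, Ldha, Gpi1, Pgam1 and Tpi1, with 1 to 4 copies each.

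The enzymes beside it gave other values. Pgk1, the next enzyme and the first to return ATP, had 165, 155 and 165 CPM in knockout against 153, 161 and 159 CPM in control libraries (a log2 fold change of 0.04 with an SE of 0.084). Pgam1, the mutase after it, had 127, 102 and 101 CPM in knockout against 136, 123 and 117 CPM in control libraries. Only knockout library 1 reached the control range there, and the log2 fold change was -0.19 (SE 0.10, adjusted p = 0.837). The ratio of Gapdh to Tpi1, both per length, was 2.24, 2.56 and 2.35 in knockout libraries, against 1.85, 1.75 and 1.79 in control libraries. To Pgam1 it was 4.60, 4.70 and 5.08 in knockout and 3.70, 3.56 and 3.61 in control libraries. Neither ratio overlapped between the groups, and both are free of the scaling between libraries. Against Pgk1 the ratio did overlap, at 3.51, 3.08 and 3.10 in knockout and 3.28, 2.72 and 2.65 in control libraries. These ratios were chosen after the values were seen and were not tested, and the limit on counting Gapdh reads holds for them too.

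Pkm, the pyruvate kinase gene whose 2 splice forms a count per gene does not separate, had 1008, 885 and 896 CPM in knockout libraries, against 1081, 915 and 874 CPM in control libraries (-0.04 ± 0.097 on the log2 scale, SE). Eno2, the neuronal enolase, was low, at 2.41, 2.40 and 3.07 CPM in knockout and 4.14, 2.38 and 3.30 CPM in control libraries. Its log2 fold change of -0.31 came with an interval of -0.90 to 0.28.

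Among the genes that handle pyruvate and lactate, all 4 had log2 fold changes below 0, from -0.36 to -0.016. Ldhb, whose subunit prevails in the lactate dehydrogenase of heart, was the single member whose groups did not overlap, against 11.2% of all genes, 5.45% with the knockout below. It had 5.98, 7.13 and 6.31 CPM in the knockout libraries, against 8.21, 8.55 and 8.09 CPM in the control libraries. All 3 knockout values were the lower ones. The log2 fold change was -0.36, with an SE of 0.17 and a 95% interval of -0.71 to -0.0018 (edgeR unadjusted p = 0.049, adjusted p = 0.763). Behind these values stood 87 to 103 reads in knockout and 93 to 133 reads in control libraries. With 1 library left out the log2 fold change ranged from -0.43 to -0.30.

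Ldha, whose subunit prevails where lactate is formed, was far more abundant, with 623, 551 and 631 CPM in knockout libraries against 624, 582 and 619 CPM in control libraries (log2 fold change -0.02, 95% interval -0.20 to 0.17). Per length, Ldhb was 0.0142, 0.0192 and 0.0148 of Ldha in knockout libraries, against 0.0195, 0.0217 and 0.0193 in control libraries. Knockout library 2 came close to the control range without entering it, and the ratio was not tested. Slc16a3 encodes MCT4, which exports lactate. It had 63.1, 57.4 and 63.7 CPM in knockout and 76.7, 57.5 and 64.5 CPM in control libraries (log2 fold change -0.11, adjusted p = 0.931). The kinase made from Pdk1 shuts off pyruvate dehydrogenase, and the gene had 34.0, 29.5 and 31.1 CPM in knockout and 32.1, 37.5 and 34.4 CPM in control libraries (-0.14, adjusted p = 0.900).

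None of the 8 pentose phosphate genes reached an unadjusted p under 0.05, and the groups overlapped for each. Their median log2 fold change was -0.082, between -0.16 for Taldo1 and 0.14 for Rpe. In the oxidative branch, G6pdx, the X-linked gene of the rate-limiting glucose 6-phosphate dehydrogenase, had 113, 103 and 107 CPM in knockout libraries, against 105, 98.6 and 110 CPM in control libraries (0.04 ± 0.090 on the log2 scale, SE). Pgd, the second NADPH-forming enzyme, had 283, 268 and 266 CPM in knockout and 268, 252 and 271 CPM in control libraries (0.05, SE 0.083). Pgls, the lactonase between them, had 26.8, 22.8 and 20.7 CPM in knockout and 29.9, 25.3 and 21.3 CPM in control libraries.

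The non-oxidative branch was dominated by Taldo1, the transaldolase gene. Taldo1 made up 51.4% of the whole pentose phosphate level per length in knockout and 53.9% in control libraries. It had 441, 353 and 380 CPM in knockout libraries, against 460, 431 and 415 CPM in control libraries. Knockout library 1 alone reached the control range, and the log2 fold change was -0.16 (SE 0.094, 95% interval -0.36 to 0.044, adjusted p = 0.861). Tkt, the transketolase gene, had 264, 288 and 262 CPM in knockout against 309, 291 and 284 CPM in control libraries, with knockout library 2 inside the control range (-0.12, SE 0.085, adjusted p = 0.881). Rpe and Rpia, the epimerase and isomerase that feed the branch, had log2 fold changes of 0.14 and -0.13 with intervals of -0.12 to 0.39 and -0.50 to 0.24, and 21.2% of the exon bases of Rpe also lie in exons of Kansl1l on the opposite strand. Prps1, which turns ribose 5-phosphate into the precursor of nucleotides, lay at 3.37 to 4.73 CPM in knockout and 2.96 to 4.86 CPM in control libraries.

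The proportion of the branches was then compared. The summed glycolysis level was 3.88, 3.95 and 4.04 times the pentose phosphate level in knockout libraries, against 3.88, 3.73 and 3.74 times in control libraries. Knockout library 1 lay just below control library 1, so that the groups overlapped. Within the pentose phosphate pathway, the 3 oxidative genes held 30.3%, 31.7% and 30.8% of the summed level in knockout libraries, against 28.1%, 27.8% and 29.6% in control libraries. The shares did not overlap, and the means differed by 2.39 percentage points. The oxidative sum was 193, 179 and 178 CPM per kilobase in knockout and 186, 172 and 182 in control libraries, and the sum of the non-oxidative genes with Prps1 was 446, 387 and 401 against 475, 449 and 433. Each of these sums overlapped between the groups. The oxidative share was chosen after its values were seen and was not tested.

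**Figure D5:**
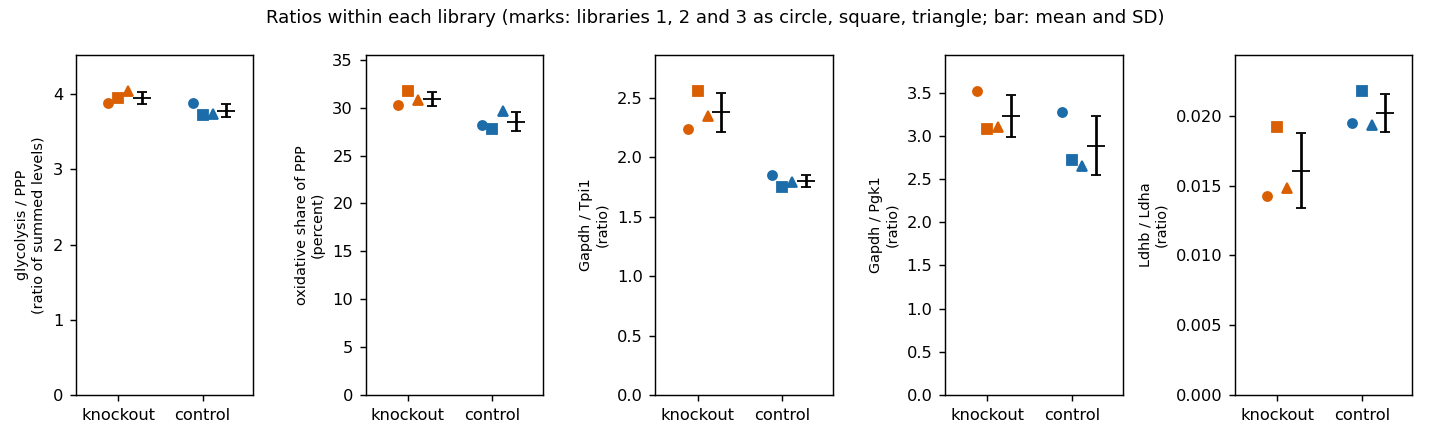
Ratios within each library (y axes, from 0) for knockout and control libraries, with 1 mark per library and the mean and SD of 3 beside them. The oxidative share and the ratios of Gapdh to Tpi1 and of Ldhb to Ldha do not overlap between the groups, while those of glycolysis to the pentose phosphate pathway and of Gapdh to Pgk1 do.

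The 4 genes that lead to glycogen had log2 fold changes between -0.073 and 0.15. Ugp2, which makes UDP-glucose, had 94.6, 113 and 95.9 CPM in knockout libraries, against 75.0, 95.6 and 103 CPM in control libraries, with control library 1 the lowest of all 6. Gys1, the glycogen synthase gene of muscle and many other tissues, had 10.6 to 14.7 CPM in knockout and 11.5 to 15.0 CPM in control libraries. The 2 phosphoglucomutase genes carry symbols that RefSeq and GENCODE use the other way round. The row named Pgm2 lies on chromosome 4 (99929451 to 99987294), where RefSeq and GENCODE place Pgm1, and the row named Pgm1 lies on chromosome 5 (64092950 to 64128158), where they place Pgm2. The chromosome 4 gene was the higher one, at 17.4 ± 0.35 CPM per kilobase in knockout and 18.2 ± 1.55 in control libraries, and the chromosome 5 gene had 7.66 ± 0.54 and 7.60 ± 0.49 (SD, n = 3 each).

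No gene outside the 34 members, on lists of the same pathways chosen by function, passed the threshold either. Of 32 further glycolysis and pyruvate genes 20 were measured, with 0 past the threshold and a median log2 fold change of -0.019. The one with the smallest p was Slc2a3, which encodes the high-affinity transporter GLUT3. It had 6.26, 6.90 and 5.95 CPM in knockout libraries, against 4.43, 3.66 and 3.30 CPM in control libraries. The knockout values were the 3 highest, as for 5.73% of all genes. The log2 fold change was 0.74 ± 0.21 (SE; adjusted p = 0.371, edgeR). GLUT3 is also a transporter of neutrophils and platelets. The summed neutrophil markers given above were higher in every knockout library. So were 6 of 8 platelet markers, with the limit given there for Tubb1 and Gp9, while the platelet sum was lower in every knockout library. The part of these cells in the Slc2a3 value was not tested. Mpc2, a subunit of the mitochondrial pyruvate carrier, had 34.5, 31.8 and 36.1 CPM in knockout against 40.6, 41.9 and 37.9 CPM in control libraries (-0.23, adjusted p = 0.728). Of 9 further pentose phosphate genes 6 were measured and 0 passed, and Dera, whose enzyme splits deoxyribose 5-phosphate, averaged 26.6 CPM in knockout and 31.6 CPM in control libraries (-0.25 on the log2 scale, adjusted p = 0.737). Of 19 further glycogen genes 15 were measured and 0 passed (median 0.061).

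The regulators were examined next. Of 17 listed sensors and transcription factors 16 were measured and 0 passed, with a median log2 fold change of 0.00078. Hif1a, the oxygen-regulated factor that drives many glycolysis genes, lay at 643, 742 and 759 CPM in knockout and 684, 706 and 747 CPM in control libraries (0.0046 ± 0.089 on the log2 scale, SE). Epas1, which encodes the related HIF-2 alpha, had 181, 148 and 120 CPM in knockout libraries, against 115, 125 and 107 CPM in control libraries. Knockout library 3 overlapped the controls, and the log2 fold change was 0.37 (SE 0.12, adjusted p = 0.538). Mxi1, a Myc antagonist, averaged 25.8 CPM in knockout and 20.4 CPM in control libraries (0.34 on the log2 scale, adjusted p = 0.672). Of 16 HIF targets outside these pathways 14 were measured and 0 passed (median -0.032), and Adm, the adrenomedullin gene, was at 0.45 on the log2 scale (adjusted p = 0.749). All 9 listed genes of the NRF2 response and NADPH supply were measured and 0 passed (median 0.11), and Hmox1, the haem oxygenase gene, was at 0.21 on the log2 scale (adjusted p = 0.749). Il1b and Nos2, markers of pro-inflammatory activation, were abundant in both groups. Il1b lay at 4078 to 4308 CPM in knockout and 4130.3 to 4853 CPM in control libraries, and Nos2 at 2649 to 3347 CPM in knockout and 2802 to 3444 CPM in control libraries.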

How the data were processed

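Per the labels' protocols, total RNA of 3 Dhps knockout and 3 control libraries went through Ion Proton sequencing. The authors deposited unnormalized whole-number counts for each gene, with exon coordinates and the summed exon length, which is another kind of value and was used here only to set levels per kilobase. Tools listed in the submitters' processing notes are Subread 1.5.0, STAR 2.4.2a, edgeR and featureCounts, without their roles, and the build is mm10. Annotation, filtering and strand use: not given in the sources used here. Antisense or overlapping genes can therefore share reads. GENCODE M21 places exons of another gene on the opposite strand over 15.3% of the exon bases of Pfkp, 21.2% of Rpe, 15.5% of the row named Pgm2 and 12.3% of Gpi1. On the same strand, exons of Gm49759 lie over 12.9% of the exon bases of Pkm, which strand use would not separate. In every row the third highest library reached 1 CPM.

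Genes were tested with edgeR 4.0.16 in R 4.3.3 (quasi-likelihood test, two-sided, TMM, genotype as the only term). With its minimum count of 10, filterByExpr left out 0 genes. SE is the size of the log2 fold change divided by the square root of F. Alternatives were DESeq2 1.42.0, limma-voom (limma 3.58.1), other size factors, other filters, a replicate block, an adjusted p under 0.1 and each library left out. Near copies were found with BLAST 2.17.0 among GENCODE M21 transcripts. All members may be named, with values per library for paralogs and for members with small p or groups that do not overlap. Of the pathway, regulator and target lists up to 4 genes with the smallest p are named, of the marker lists the defining members. Hif1a, Il1b, Nos2 and single markers that lead or limit a count or a sum were added after their values were seen. Members and lists were chosen with earlier results of these data known. RefSeq promoter windows were matched by symbol and chromosome, or by position within 1000 bases (GRCm38.p6).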

Additional observations from a re-analysis of the deposited data

How the results depend on the processing

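The count of 0 members called in either direction was the same under every alternative run: RLE or no size factors, looser and stricter filters, DESeq2, limma-voom, the replicate block, an adjusted p under 0.1 and each of the 6 libraries left out. The looser filter gave the main fit again, since filterByExpr had left out 0 genes. Over all genes, 10 were called higher and 1 lower, against 19 and 3 with DESeq2. Leaving out 1 library gave 3 (without control library 2) to 14 (without control library 1) higher and 1 to 5 (without control library 1) lower. With the replicate number as a block 26 were higher and 9 lower, and 4 members (Gapdh, Pfkfb3, Pgam1 and Tpi1) had an unadjusted p under 0.05. Deviations from the group means correlated with r = 0.16, 0.022 and 0.16 between same-numbered libraries. Between differently numbered libraries r ran from -0.21 to 0.079. Whether the replicate numbers pair the libraries was not tested. The members with an unadjusted p under 0.05 were Gapdh alone with DESeq2, RLE size factors or a filter of 1 CPM in every library of a group, Gapdh and Pfkfb3 without size factors, and 0 to 3 members with 1 library left out.

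Of 272 member values under alternatives other than leaving out a library, 269 kept their direction. The exceptions were Pfkp (0.0082) and Ldha (0.0089) without size factors and Pfkm (-0.022) with limma-voom. The looser filter and the adjusted p under 0.1 left the main fit as it was, so their values among the 272 could not change direction. With 1 library left out, 182 of 204 values kept their direction. Log2 fold changes that crossed 0 there ranged from -0.0096 to 0.17 for Slc2a1, -0.27 to 0.015 for Hk1, -0.027 to 0.10 for Hk2, -0.029 to 0.050 for Gpi1, -0.32 to 0.23 for Pfkm, -0.081 to 0.037 for Pfkp, -0.10 to 0.056 for Pkm, -0.049 to 0.044 for Ldha, -0.20 to 0.012 for Slc16a3, -0.24 to 0.0017 for Pgls, -0.23 to 0.090 for Prps1, -0.040 to 0.065 for Pgm1 and -0.15 to 0.069 for Gys1. The cause was not tested. The median ranged from -0.12 to -0.0034 for glycolysis and from -0.17 to 0.022 for pentose phosphate members. Alternatives for the 3 ratios added after seeing the data kept their sign: with 1 library left out the oxidative share differed by 2.00 to 2.96 percentage points, the Gapdh to Tpi1 ratio by 0.49 to 0.65 and the glycolysis to pentose phosphate ratio by 0.13 to 0.23. The 4 members whose 95% interval reached beyond a 1.5-fold change were all under 10 CPM in every library.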
